A study of Rattus norvegicus with 2 samples.

Results

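Syt1 encodes synaptotagmin 1, the calcium sensor that triggers fusion of secretory vesicles with the plasma membrane in neurons and endocrine cells. The cells described here are those control cells of IEC-6, a rat line of small-intestinal epithelium, in which Syt1 was counted most. They were selected on their own Syt1 counts: a cell of the control library with at least 500 counts in all was taken when at least 2 of its counts were Syt1. This rule found 492 of the 5713 control cells, 8.61% (7.90 to 9.37, exact Clopper-Pearson 95% interval), in a series of 9170 cells. They were set against the 2918 control cells that had 0 Syt1 counts and at least 2000 counts in all, called Syt1-zero cells below.

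The series measured gene expression in single IEC-6 cells by RNA sequencing, in 1 library of cells given phosphate-buffered saline as control and 1 library of cells labelled TNF, for the cytokine tumor necrosis factor. Per the labels, TNF-treated cells were repeatedly exposed to recombinant rat TNF at 100 ng/mL, for 72 hours at a time in 10 cycles, and control cells went through 10 rounds of saline. Cells of both libraries were grown in high-glucose medium with serum and insulin, frozen, and thawed before library preparation. The 2 titles carry different prefixes, so preparation and treatment cannot be told apart. The cells are a line in culture, with no tissue around them, and each library is 1 sample. No test was therefore possible, and every interval below covers counting error only.

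In neurons, synaptotagmin 1 sits on the vesicle membrane and acts on a complex of SNARE proteins, of which Snap25 is the partner on the plasma membrane. Map2, listed with Syt1 as a marker of these cells, encodes a protein that binds and stabilises microtubules in dendrites. Chl1, the other listed marker, encodes a cell adhesion protein of the L1 family that guides growing nerve processes. In the gut, enteroendocrine cells and nerve cells release hormones and transmitters by regulated vesicle fusion.

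Syt1 counts in the selected cells were mostly low. Exactly 2 counts were found in 226 cells, 3 in 106 cells, 4 in 68 cells, and the largest number was 21. Just outside the threshold lay 734 control cells with 1 Syt1 count. The summed Syt1 level was 453 CPM (counts scaled to a total of 1000000), which restates the selection and is no finding. The selected cells were also the deeper ones, with a median of 5900 counts and 2642.5 genes against 3824 counts and 1969.5 genes in the Syt1-zero cells. Of the 492 cells, 45 had fewer than 2000 counts. The median mitochondrial share was 3.36% against 3.44%. Since a deep cell passes a count threshold more easily, values are also given after every cell was thinned at random to 2000 counts, which left 447 selected cells. The median doublet score was 0.109 against 0.0962. No cell of the library was called a doublet, too few for the caller to have worked, so doublets were left in and may be among the cells. Of the cell barcodes, 24 occurred in both libraries, 2 of them among the selected cells, and the counts of genes given next were 15 and 11 without them as well.

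Syt1-high cells had nearly the same summed profile as Syt1-zero cells. A gene was tested for size when it had at least 20 CPM and at least 20 counts in either group, and it was counted as higher or lower when the ratio of CPM was at least 2-fold. Of 6733 genes, 15 (0.223%) were higher, Syt1 among them, and 11 (0.163%) were lower. With every cell thinned to 2000 counts the numbers were 35 and 45, so they depend on how depth was equalised. They were 37 and 243 when cells were also chosen by their Syt1 count after thinning. That choice left 154 Syt1-high cells, in which 20 counts is a far higher CPM than in the many Syt1-zero cells. A gene thus reached a higher call less easily than a lower one, and 243 is no measure of the balance. Of the 6732 genes besides Syt1, 97.4% lay within 1.5-fold of each other in the 2 groups, 107 were higher by 1.5-fold or more and 68 lower by as much. A ratio above 1 was found for 49.9% of them, the share to set beside the counts over gene lists below. Across these genes the log2 levels correlated with an r of 0.986, a description over genes that share the same 2 groups of cells. Because every gene was counted in the same cells that Syt1 had selected, these numbers describe the cells and were not tested.

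**Figure D1:**
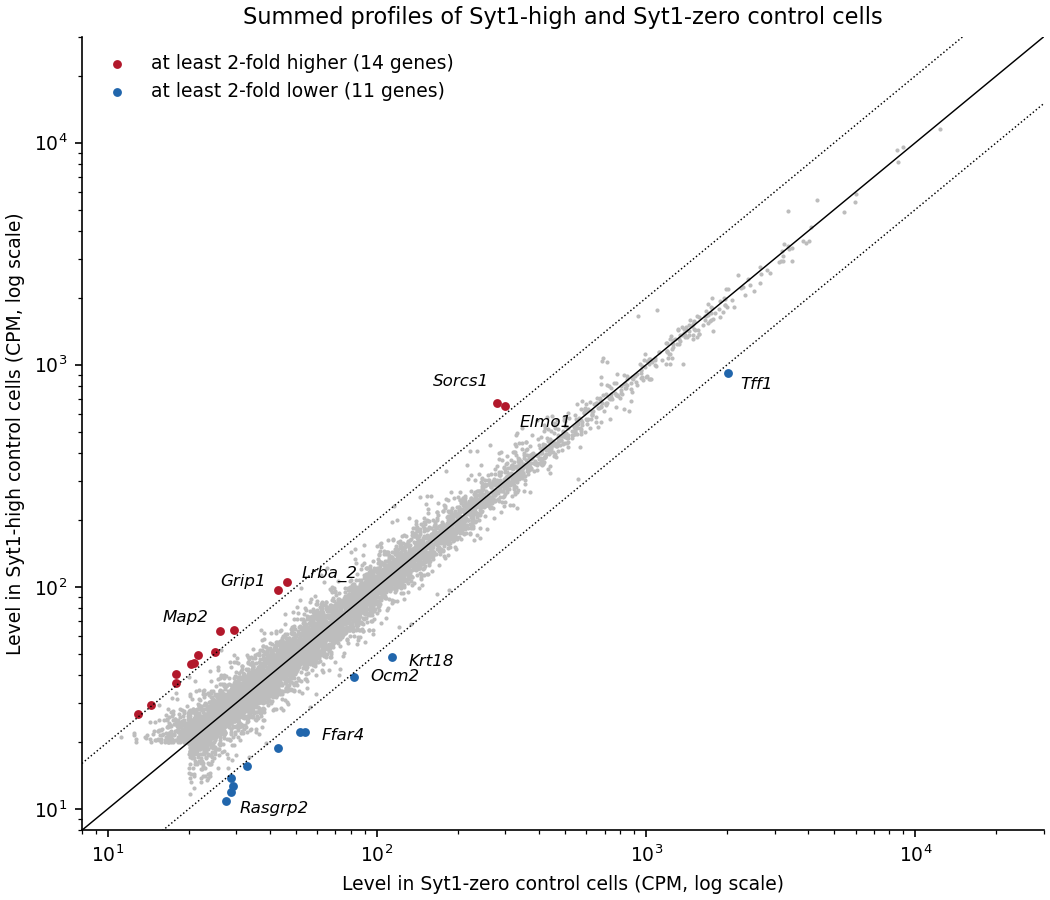
Each point is 1 of the 6732 genes besides Syt1, with its level in Syt1-zero control cells on the x axis and in Syt1-high control cells on the y axis, both in CPM on log scales. The solid line marks equal levels and the dotted lines 2-fold differences. Most points hug the solid line, 14 genes lie at or above the upper dotted line and 11 at or below the lower one.

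Beside Syt1, the higher genes held 1 of the 2 other listed markers. Map2 stood at 63.4 CPM in Syt1-high and 26.2 CPM in Syt1-zero cells, a ratio of 2.42 (2.05 to 2.86). After thinning it was counted in 13.0% (10.0 to 16.4) of Syt1-high and 5.14% (4.37 to 6.00) of Syt1-zero cells, so most selected cells showed no Map2 count at this depth. Chl1 stood at 16.9 against 9.80 CPM, below the minimum level, with a ratio of 1.73 (1.26 to 2.34). It was counted in 4.03% (2.40 to 6.29) and 1.95% (1.48 to 2.52) of thinned cells. No cell type known to lack these genes was identified in the cultures, so the share that free RNA gives was not measured.

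The higher genes with the most counts were Sorcs1 and Elmo1. Sorcs1 encodes a sorting receptor of the sortilin family, which also acts in neurons and endocrine cells. Its level was 676 CPM in Syt1-high and 279 CPM in Syt1-zero cells, a ratio of 2.42 (2.30 to 2.54), and 65.5% against 36.4% of thinned cells held a count. Elmo1, which activates the small GTPase Rac together with DOCK proteins in engulfment and migration, was at 654 against 299 CPM, a ratio of 2.18 (2.08 to 2.30). Its counts were found in 68.0% and 40.1% of thinned cells. Both genes were thus present in a large share of Syt1-zero cells too.

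Further higher genes included Grip1, Lrba, Cytip and Dmd. Grip1, a scaffold that binds glutamate receptors and other membrane cargo, was at 96.7 against 43.0 CPM, a ratio of 2.25 (1.97 to 2.57). Lrba, which encodes a BEACH-domain protein of vesicle trafficking, is listed under 2 identifiers, and its reads may be split between them. The second, Lrba_2, had a ratio of 2.27 (2.00 to 2.58) and the first, Lrba, 1.99 (1.83 to 2.16), just under 2-fold. Cytip, which binds cytohesins and the cell cortex, stood at 45.2 against 20.9 CPM. Dmd, which encodes dystrophin, stood at 50.8 against 24.9 CPM.

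Further higher genes share no evident role. Frem1, a basement membrane protein, was at 37.0 against 17.9 CPM. Srpx, a secreted protein with sushi repeats, had a ratio of 2.29, Them5, a mitochondrial acyl-CoA thioesterase, 2.19, and Zfp385b, a zinc finger protein, 2.03. Another gene, AABR06093716.1, has no symbol and was at 26.7 against 13.0 CPM.

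Among the genes between 1.5-fold and 2-fold higher, 6 were picked after their values were seen. Dach2, a transcription cofactor, had a ratio of 1.97 (1.60 to 2.41), and Meis1, a homeodomain factor, one of 1.68 (1.55 to 1.81). Piezo2, a mechanically gated channel, had a ratio of 1.69 (1.55 to 1.84). Ank3, which anchors membrane proteins to the cytoskeleton, was at 148 against 82.7 CPM. Cacnb2, a subunit of voltage-gated calcium channels, was at 434 against 262 CPM, and Fetub, a secreted protease inhibitor, at 334 against 180 CPM.

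The lower genes were led, by counts, by Tff1, a secreted trefoil peptide of mucus-producing epithelium. Its level was 922 CPM in Syt1-high and 2018 CPM in Syt1-zero cells, a ratio of 0.457 (0.441 to 0.473), and it was counted in 60.9% against 74.3% of thinned cells. Krt18, a keratin of simple epithelia, was at 48.1 against 113 CPM, a ratio of 0.424 (0.362 to 0.495). Ffar4, a receptor for long-chain fatty acids, was at 22.2 against 54.1 CPM, and Ocm2, of the oncomodulin family of calcium-binding proteins, at 39.1 against 81.9 CPM. Fxyd2, a regulator of the sodium pump, and Ano1, a calcium-activated chloride channel, had ratios of 0.430 and 0.479. Col3a1, a fibrillar collagen, had a ratio of 0.437, Rasgrp2, an activator of Rap1, 0.415, Cyfip2, of the actin-regulating WAVE complex, 0.433, and Aen, a p53-induced nuclease, 0.475. The eleventh gene, AABR06041255.1, has no symbol and was at 10.8 against 27.4 CPM.

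Of the 3 genes of differentiated intestinal lineages at the minimum level, Lgals4 and Gkn2 had ratios below 1 and Cdx2, an intestinal transcription factor, was at 94.6 against 87.1 CPM, a ratio of 1.09 (0.964 to 1.22). Lgals4, a galectin of the gut lining, was at 97.0 against 185 CPM, a ratio of 0.523 (0.468 to 0.584), and Gkn2, a gastrokine, had one of 0.557 (0.467 to 0.661). Within clusters 2, 4 and 5 Lgals4 had ratios of 1.02, 0.971 and 1.09, close to 1. Tff2, Pla2g2a and Cdh17 were named after their values were seen. Tff2, another trefoil peptide, had a ratio of 0.505 (0.442 to 0.576), and in cluster 5 one of 2.71 (2.02 to 3.63). Pla2g2a, a secreted phospholipase, was at 307 against 560 CPM, and Cdh17, an intestinal cadherin, at 17.4 against 29.9 CPM. Thinned cells with an Lgals4 count made up 17.2% (13.8 to 21.1) and 20.3% (18.8 to 21.8), a far smaller gap than that of the level.

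The 13 higher genes with a symbol besides Syt1, called the leading higher genes below as the 10 lower genes with a symbol are the leading lower genes, lay above the Syt1-zero level as soon as 1 Syt1 count was present. Cells thinned to 2000 counts were split into 2918 with 0, 566 with 1, 204 with 2, 97 with 3 and 146 with 4 or more Syt1 counts, where the class is the cell's count before thinning. All 13 leading higher genes were above the class of 0 in the class of 1, whose cells were in neither group when the genes were picked. The class of 0, however, is the Syt1-zero group used in the pick, so this is no independent check. The share of all genes that were higher in the class of 1 is not given. All 13 were also above the class of 0 at 4 or more, which largely restates the pick, since those cells are among the selected ones. Between classes of selected cells, 11 of the 13 were higher at 4 or more than at 2. Sorcs1 stood at 302, 489, 588, 814 and 921 CPM over the 5 classes. Elmo1 stood at 319, 503, 632, 732 and 914 CPM. Their levels thus went up at every step of the Syt1 count, with no break at the threshold of 2. Map2 stood at 30.2, 50.4, 68.6, 124 and 82.2 CPM, and the intervals of its 3 highest classes overlapped. Tff1 went the other way, at 1788, 1140, 900, 789 and 760 CPM. Of the 10 leading lower genes, 2 were above the class of 0 in the class of 1. None of the 10 was above it at 4 or more counts, which again largely restates the pick.

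**Figure D2:**
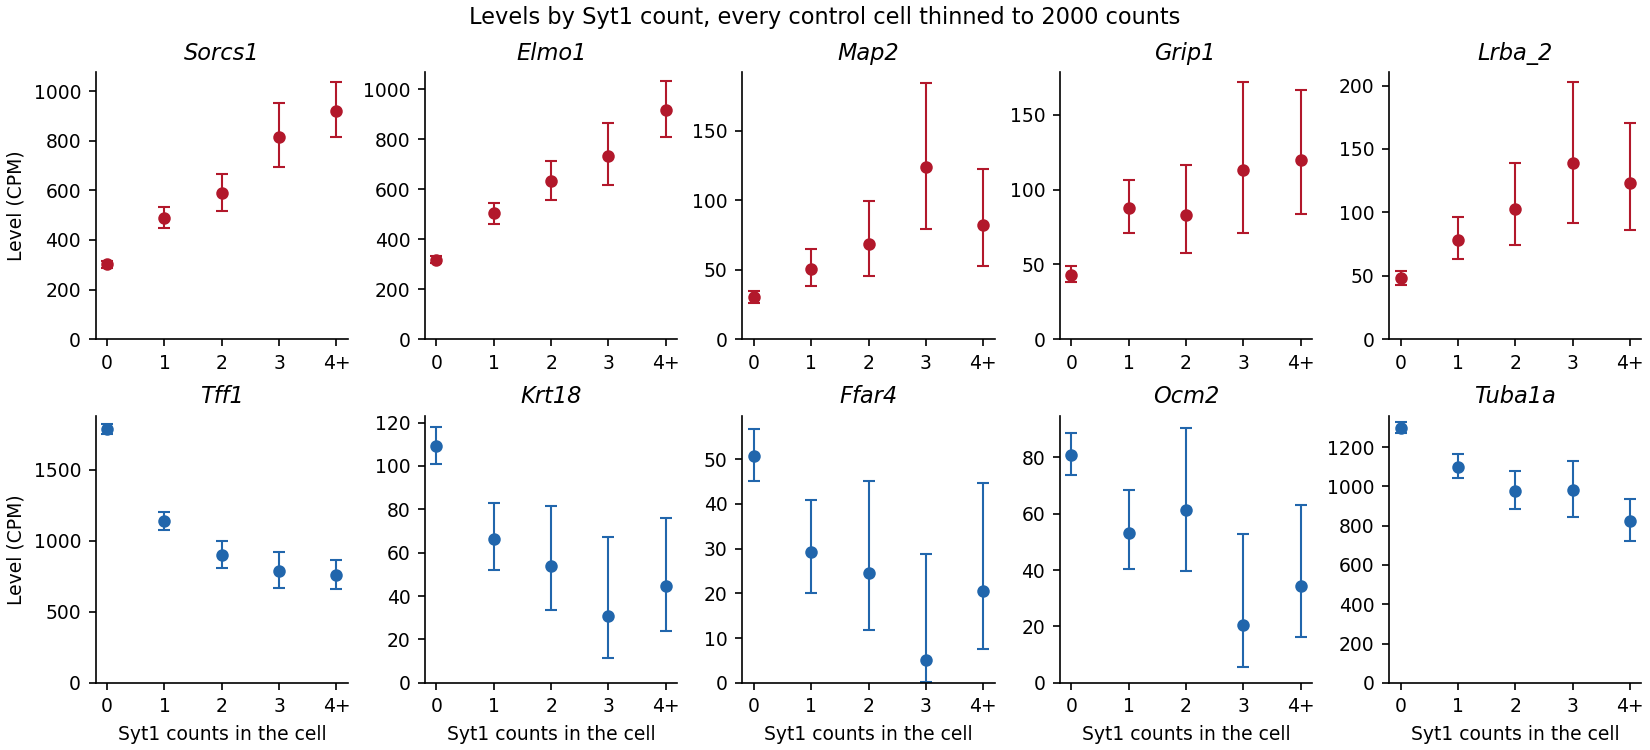
Levels in CPM (y axis, from 0) of 5 higher genes in red and 5 lower genes in blue, in control cells with 0, 1, 2, 3 and 4 or more Syt1 counts (x axis), all thinned to 2000 counts, with bars for exact Poisson 95% intervals. Sorcs1 and Elmo1 go up at every class, from 302 to 921 CPM and from 319 to 914 CPM, while Tff1 goes down from 1788 to 760 CPM.

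The 10 genes whose counts varied most like those of Syt1 from cell to cell included 3 of the 13 leading higher genes, Elmo1, Sorcs1 and Grip1. Over 3931 control cells thinned to 2000 counts, Pearson's r of log values with Syt1 was 0.225 for Elmo1 and 0.217 for Sorcs1. Spp1, which encodes the secreted protein osteopontin, followed at 0.198, then Adh7, an alcohol dehydrogenase that also acts on retinol, at 0.161. Gmds, an enzyme of fucose synthesis, Lrba, Zfpm2, a cofactor of GATA factors, Slit2, a secreted guidance cue, and Grip1 were also among the 10 largest, at 0.152 to 0.122. The median over 6548 genes was -0.00 and the 95th percentile 0.041. At the other end were Tuba1a, an alpha tubulin, at -0.130 and Tff1 at -0.104. These correlations are weak, come from sparse counts in cells of 1 library, and are given as a description. In the summed profiles Spp1 was at 1651 against 936 CPM, a ratio of 1.76, and Slit2 at 411 against 221 CPM, a ratio of 1.85.

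The leading higher genes were also counted cell by cell. The summed count of the 13 leading higher genes in a thinned cell was 4.41 ± 3.27 (SD over 447 cells) in Syt1-high and 1.84 ± 2.07 (SD over 2918 cells) in Syt1-zero cells. At least 3 of the 13 genes were counted in 49.7% (44.9 to 54.4) of Syt1-high and 14.7% (13.4 to 16.0) of Syt1-zero cells, and none in 6.26% and 28.3%. The 2 groups overlapped widely, with values from 0 to 17 in each. The 13 genes were picked in these cells, so the difference describes its size only. Whether they occur together more often than their levels alone would give was not tested.

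Markers of nerve and endocrine cells were near 0 in Syt1-high cells. Of 18 neuron markers, 17 were listed in the file, none reached the minimum level, and their counts summed to 17.7 CPM in Syt1-high and 13.0 CPM in Syt1-zero cells. In Syt1-high cells 5 of the 17 were at 0, namely Rbfox3, Nefh, Syp, Dcx and Ret, and Snap25 was the largest at 6.87 CPM. In Syt1-zero cells, whose sum holds more counts, 4 were at 0. Snap25 had 26 counts in Syt1-high and 33 in Syt1-zero cells, a ratio of 2.97 (1.71 to 5.13), and 2.89 (1.82 to 4.62) by the same rule in the TNF-labelled library. In thinned control cells Snap25 stood at 3.26, 5.30, 2.45, 5.15 and 10.3 CPM over the 5 classes of Syt1 count. These levels rest on 19, 6, 1, 1 and 3 counts. Within clusters 2, 4 and 5 its ratios were 1.64 (0.529 to 4.77), 7.41 (2.56 to 26.1) and 2.33 (0.462 to 10.8). Enteroendocrine markers, 16 listed, summed to 13.5 against 11.8 CPM. Of the 16, 8 were at 0 in Syt1-high cells, Chga and Gcg among them, and 2 in the more deeply summed Syt1-zero cells. Glia markers summed to 11.1 against 6.44 CPM and tuft cell markers to 1.25 times as much in Syt1-high as in Syt1-zero cells. White blood cell markers summed to 5.29 against 5.18 CPM, and of the endothelial markers only Tek, which encodes the receptor of the angiopoietins, reached the minimum, at 85.6 against 64.9 CPM.

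Epithelial markers were present in both groups. Krt8, which pairs with Krt18 in keratin filaments, had 2150.1 against 2505 CPM. Cdh1, the gene of E-cadherin, had 411 against 425 CPM. All 5 epithelial markers that reached the minimum had ratios below 1, and Krt18 alone passed the 2-fold size. Epcam, a defining epithelial marker, had 1 and 2 counts, and Cldn3, Cldn4 and Cldn7 were not in the gene list of this library. The label of the cells thus rests on Syt1 and Map2, and no other marker of neurons or endocrine cells reached the minimum level.

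Among synaptotagmins and genes of the fusion machinery at the minimum level, none but Syt1 passed 2-fold. Snap25, with the ratio given above, was below that level. Besides Syt1, 5 members of the synaptotagmin family reached the minimum, 4 with ratios above 1 and none 2-fold, and Esyt2, a tether between the endoplasmic reticulum and the plasma membrane, was at 159 against 137 CPM. Of 23 genes of the vesicle fusion machinery, none passed 2-fold in either direction, 13 were above and 10 below 1, and the median log2 ratio was 0.01 beside -0.00 over all genes. Cadps2, which primes dense-core vesicles, was at 284 against 264 CPM, Vamp5 at 34.4 against 26.2 CPM and Vamp3 at 258 against 272 CPM. Of 22 axon guidance genes, 0 passed 2-fold, and Slit2 and Sema6a led with ratios of 1.85 and 1.61, while Sema3c was at 629 against 824 CPM. Of 4 neural adhesion genes, Alcam was at 1034 against 684 CPM, a ratio of 1.51 (1.46 to 1.57), and Flrt3 had a ratio of 0.655.

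Tubulins and genes of cell division were mostly lower in Syt1-high cells, none of them by 2-fold. All 6 tubulins at the minimum level had ratios below 1, with a median log2 ratio of -0.40, whereas of 23 microtubule-associated proteins 15 were above 1 with a median of 0.13 and Map2 was the only 2-fold one. Tuba1a was at 1006 against 1371 CPM, a ratio of 0.733 (0.708 to 0.759), and Tubb4b, a tubulin also counted among the G2M genes, at 620.1 against 866 CPM. Of 42 G2M genes, 40 had ratios below 1 with a median log2 ratio of -0.36, where 49.9% of all 6732 genes had ratios above 1. Ccnb1, the mitotic cyclin, was at 63.7 against 96.3 CPM and Mki67, a marker of dividing cells, at 233 against 312 CPM. Of 30 S phase genes, 26 were below 1, with a median of -0.15, and Mcm7, a subunit of the replicative helicase, had a ratio of 0.664 (0.579 to 0.758). Top2a, a topoisomerase of dividing cells, was at 130 against 135 CPM, a ratio of 0.956 (0.864 to 1.06). With Syt1-zero cells weighted to the clusters of the Syt1-high cells, Tuba1a had a ratio of 0.825, Ccnb1 0.834 and Mcm7 0.734, nearer to 1. Pcna, of the S phase list, went from 0.915 to 1.04. How far the spread over clusters accounts for the lower ratios was not tested.

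Phase calls were made from the same lists and share their genes. In thinned cells, G1 was called in 50.3% (45.6 to 55.1) of Syt1-high and 35.3% (33.6 to 37.1) of Syt1-zero cells, and G2M in 26.2% (22.2 to 30.5) and 39.7% (37.9 to 41.5). S phase took 23.5% (19.6 to 27.7) and 25.1% (23.5 to 26.7). When cells called G1 alone were compared, 16 genes were at least 2-fold higher and 37 lower, all 14 other genes counted as higher stayed above 1, and Chl1 had a ratio of 1.09. The part of cell cycle phase, free RNA and depth in the calls was not tested further.

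**Figure D3:**
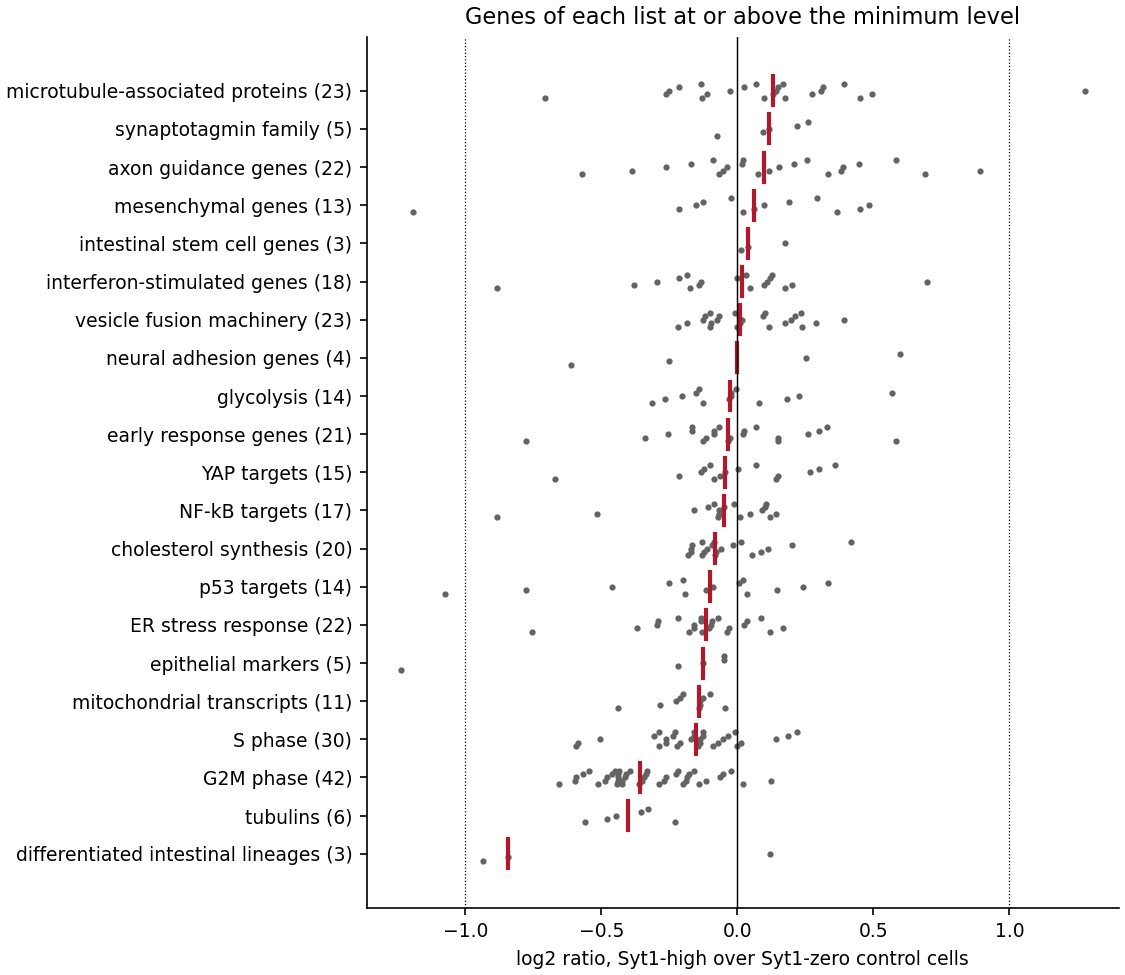
Each point is a gene at or above the minimum level, placed by its log2 ratio of Syt1-high over Syt1-zero control cells (x axis), in rows by gene list with the number of genes in brackets, for lists of at least 3 such genes, ribosomal proteins left out. Red bars are medians, the solid line marks a ratio of 1 and the dotted lines 2-fold, and the tubulin and G2M medians lie at -0.40 and -0.36.

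Stress, inflammatory and metabolic lists held no gene at least 2-fold higher, and 1 lower, the p53 target Aen. Over all 6732 genes 49.9% were above 1, so a list split near evenly is like the genes at large. Of 17 NF-kB targets, 7 were above and 10 below 1 with a median log2 ratio of -0.05. Cxcl10, an interferon-induced chemokine, was the lowest at 65.6 against 121 CPM, a ratio of 0.542 (0.473 to 0.620), and Cxcl1, a neutrophil chemokine, was at 1494 against 1483 CPM. Interferon-stimulated genes, 18 in number, had a median of 0.02, with Mx1, an antiviral GTPase, at 81.4 against 50.2 CPM. Glycolysis genes had a median of -0.03 with 10 of 14 below 1, cholesterol synthesis genes -0.08 with 14 of 20, and ER stress genes -0.12 with 17 of 22, and -0.18 in thinned cells. Targets of p53 had a median of -0.10 and YAP targets of -0.04. All 11 mitochondrial transcripts were below 1 with a median of -0.14, and -0.23 in thinned cells, while 48 of 81 ribosomal protein genes were above 1 with a median of 0.02. Intestinal stem cell genes reached the minimum in 3 cases, with Cd44, an adhesion receptor, at 520.0 against 460.3 CPM. Dclk1, a kinase that binds microtubules and marks tuft cells, was at 304 against 232 CPM, a ratio of 1.31 (1.22 to 1.40).

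Syt1-high cells were spread unevenly over the clusters of control cells. With Syt1 left out of the clustering, 6 clusters were found, and 50.4% (45.9 to 54.9) of the 492 cells lay in cluster 2, 27.4% in cluster 4 and 13.0% in cluster 5. Of the Syt1-zero cells, 24.3%, 22.1% and 8.22% lay in these clusters. Clusters 0, 1 and 3 held 4.07%, 2.64% and 2.44% of Syt1-high cells and 14.5%, 17.5% and 13.4% of Syt1-zero cells. Cluster 0 was shallow, with a median of 1845 counts a cell, where a threshold of 2 Syt1 counts is harder to pass. The genes that marked cluster 2 included Map2, Fetub, Syt1 and Serpina3n, those of cluster 4 Epha7, Col3a1, Hapln1, Ocm2 and Shroom3, and cluster 5 was marked by Top2a and Esco2. Cluster 1, with a small share of Syt1-high cells, was marked by Ccnb1 and Cdc20. At 2000 counts a cell, Syt1 was counted in 24.3% (21.9 to 26.9) of cluster 2, in 15.5%, 12.6% and 12.0% of clusters 5, 0 and 4, in 7.28% of cluster 1 and in 4.81% (3.00 to 7.25) of cluster 3. The share of cluster 0 is over the 494 of its 1503 cells that had at least 2000 counts. No cluster was without Syt1, and even in cluster 2 most cells showed none at that depth. The clusters were left unnamed.

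**Figure D4:**
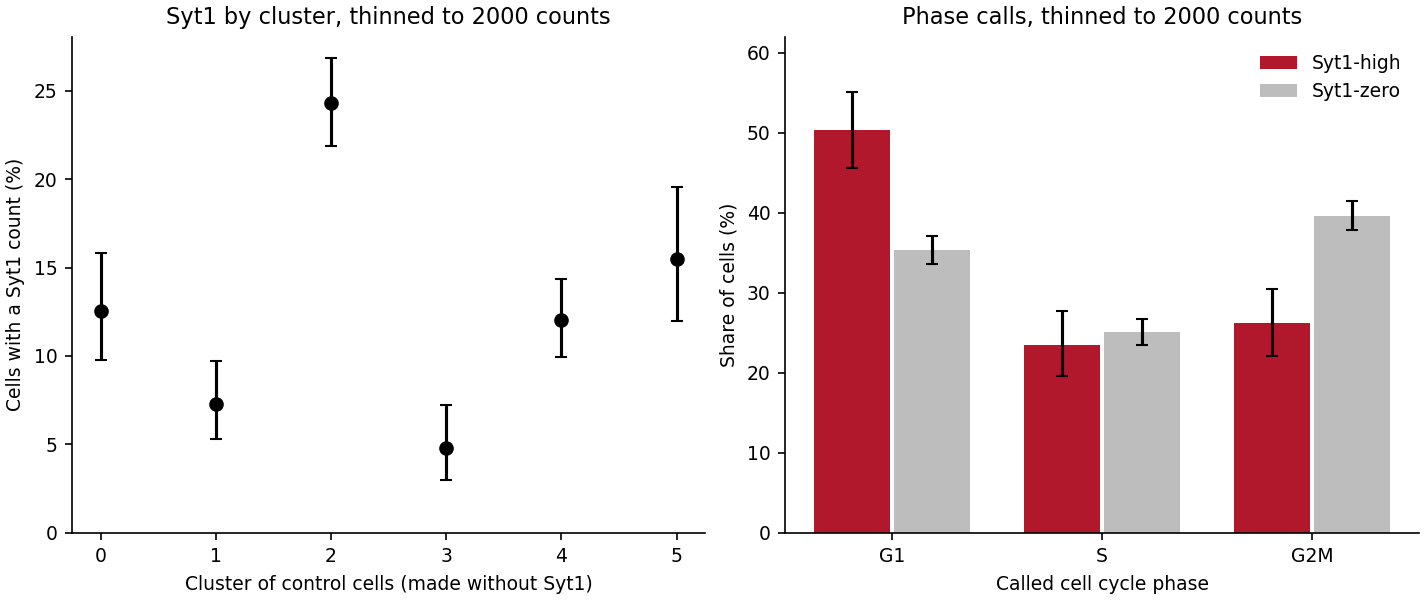
Left, the share of control cells with a Syt1 count (y axis, %) in each of the 6 clusters (x axis), and right, the share of Syt1-high (red) and Syt1-zero (grey) control cells called G1, S and G2M, all in cells thinned to 2000 counts, with bars for exact Clopper-Pearson 95% intervals. Cluster 2 stands highest at 24.3% and cluster 3 lowest at 4.81%, and G1 was called in 50.3% against 35.3% of cells. Cluster 0 is shown by 494 of its 1503 cells, those with at least 2000 counts.

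Within clusters the differences varied in size, and for some lower genes in direction. Of the 13 leading higher genes, all 13 were above 1 in clusters 2 and 4 and 11 in cluster 5, with median ratios of 1.49, 2.52 and 1.41, and 11, 13 and 6 of them had intervals above 1. Of the 10 leading lower genes 8, 10 and 6 were below 1, with median ratios of 0.628, 0.391 and 0.873. Both sets were picked by their ratios in mostly these same cells, so these counts largely restate the pick. The share of all genes above 1 within each cluster is not given, so the counts describe the size of the ratios only. Sorcs1 had ratios of 1.58, 2.56 and 1.27 in clusters 2, 4 and 5, and Elmo1 of 1.43, 2.29 and 1.59. Map2 was at 72.0 against 59.5 CPM in cluster 2, a ratio of 1.21 (0.949 to 1.53), and at 58.1 against 13.1 CPM in cluster 4, a ratio of 4.44 (3.09 to 6.43). Syt1-high cells of cluster 4 thus had a Map2 level close to that of cluster 2, while Syt1-zero cells of cluster 4 had much less. Cluster 4 may hold more than 1 kind of cell. In a finer clustering, at resolution 1.0, Hapln1 and Ocm2 marked a cluster with 1.83% of Syt1-high and 12.8% of Syt1-zero cells. Whether the ratios within cluster 4 come from a mix of such kinds was not tested. Krt18 had ratios of 1.19 (0.863 to 1.62), 0.398 (0.309 to 0.507) and 1.34 (0.707 to 2.44) in clusters 2, 4 and 5, and Tff1 of 0.734, 0.686 and 1.05 (0.937 to 1.17). With the Syt1-zero cells weighted to the members' clusters, 4 genes were at least 2-fold higher and 11 lower, but only 7 of the lower ones were among the 11 above. Fxyd2 moved to 0.773, Ano1 to 0.667 and Krt18 to 0.613. In the same weighting Map2 had a ratio of 1.91, Sorcs1 1.88, Tff1 0.715 and Lgals4 0.967.

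The leading ratios were also formed within ranges of depth. In bins of 2000 to 4000, 4000 to 8000 and at least 8000 counts, which held 121, 156 and 170 Syt1-high cells, Sorcs1 had ratios of 3.21, 2.68 and 2.33. Map2 had ratios of 2.89, 2.85 and 2.75 and Elmo1 of 2.71, 2.30 and 2.31 in the same bins. Tff1 lay at 0.539, 0.292 and 0.431. The ratio of Sorcs1 was thus largest among the shallower cells and that of Map2 nearly level. Chl1 had 3.75, 1.12 and 1.68, on few counts.

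The TNF-labelled library is the one sample the selection did not use. NF-kB targets, which TNF is known to induce, summed to 2421 CPM in its Syt1-zero cells and to 6998 CPM in Syt1-zero control cells, so the library is called by its label and not by a treatment. There the same thresholds gave 524 Syt1-high cells of 3457, 15.2% (14.0 to 16.4), against 1566 Syt1-zero cells. At 2000 counts a cell, a Syt1 count was found in 21.9% (20.3 to 23.5) of its cells, where the control library had 14.6% (13.5 to 15.7), and at least 2 counts in 6.98% and 3.92%. Median depth was 4864 counts in its Syt1-high and 4449 in its Syt1-zero cells. Of 6541 genes tested there, 6 (0.0917%) were at least 2-fold higher, Syt1 included, and 8 (0.122%) lower. Of 6540 genes besides Syt1, 51.4% had a ratio above 1 and 48.6% below 1.

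Most genes that were higher with Syt1 in the control library were also higher with Syt1 in the TNF-labelled library, at smaller ratios. Of the 13 leading higher genes 12 were above 1, 10 with intervals above 1. At the minimum level there, over which the 51.4% of all genes was counted, 11 of 12 were above 1. For the 13 genes the median ratio was 1.53 where it was 2.19 in the control library. Elmo1 was at 806 against 383 CPM, a ratio of 2.10 (1.99 to 2.22), and Sorcs1 at 279 against 141 CPM, a ratio of 1.98 (1.81 to 2.17). Them5 had a ratio of 2.59 (1.74 to 3.84), Cytip 1.88 and Grip1 1.67. Elmo1 and Sorcs1 thus kept a ratio near 2 in both libraries. With cells of the TNF-labelled library thinned to 2000 counts, 12 of the 13 genes were above 1, but only 7 had intervals above 1.

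Map2 was the exception. It stood at 93.1 CPM in Syt1-high and 93.7 CPM in Syt1-zero cells of the TNF-labelled library, a ratio of 0.993 (0.861 to 1.14). Both levels were above the 63.4 CPM of the Syt1-high control cells, and the interval of the ratio held 1. Chl1 was at 6.18 against 11.1 CPM, a ratio of 0.555 (0.314 to 0.929), on the other side of 1 from the control library. Neither listed marker was thus higher with Syt1 in the TNF-labelled library, and the difference between libraries was not tested.

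**Figure D5:**
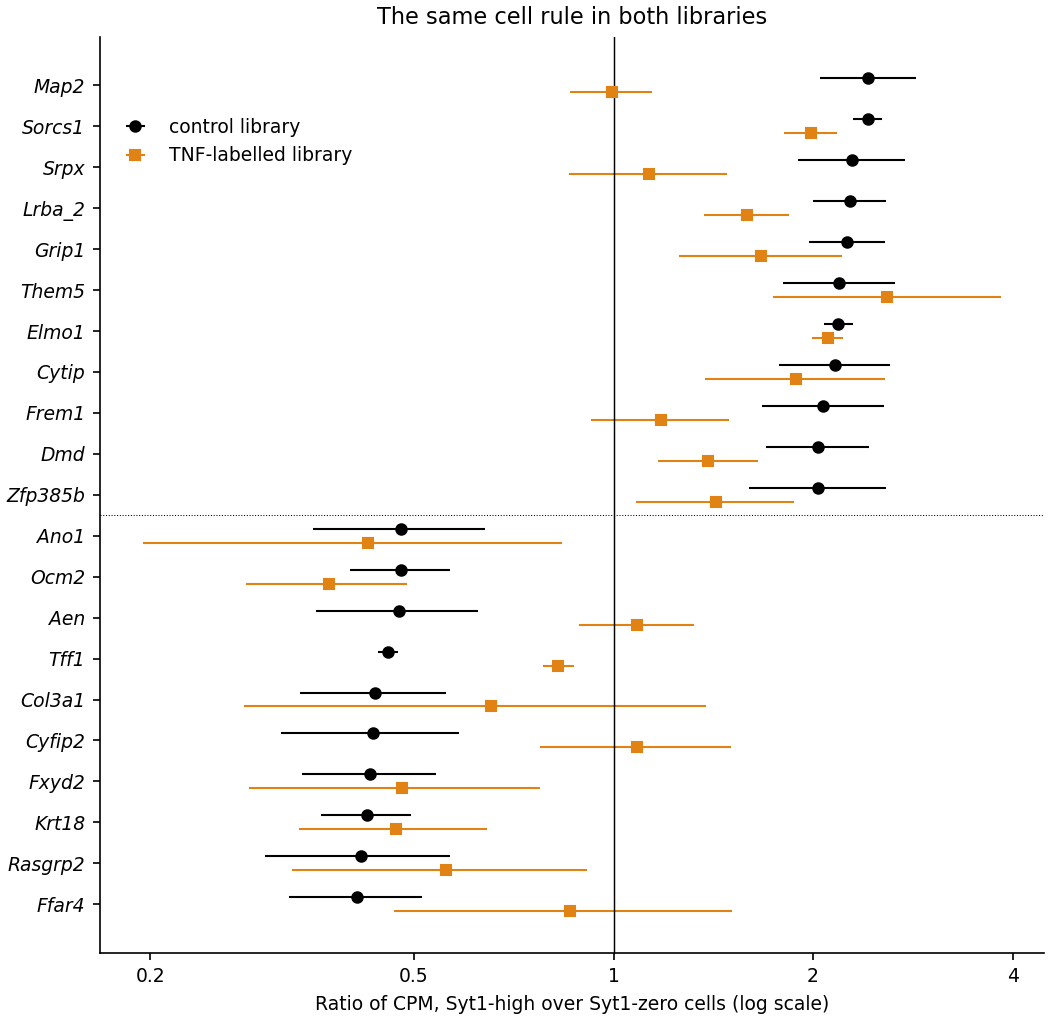
Ratios of CPM, Syt1-high over Syt1-zero cells (x axis, log scale), for 11 of the leading higher genes (above the dotted line) and the 10 leading lower genes (below it), in the control library (black circles) and the TNF-labelled library (orange squares), with bars for exact 95% intervals of counting error. Elmo1 and Sorcs1 lie near 2 in both libraries, whereas Map2 lies at 2.42 and 0.993.

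The lower genes were mostly below 1 there too. Of the 10 leading lower genes 8 were below 1 in the TNF-labelled library, 6 of them with intervals below 1. The 48.6% of all genes is over genes at the minimum level, which 4 of the 10 reached there, 3 of these below 1. Ocm2 was at 20.6 against 55.4 CPM, a ratio of 0.372 (0.279 to 0.488), and Krt18 at 15.8 against 33.7 CPM, a ratio of 0.469 (0.335 to 0.644). Tff1 was at 593 against 718 CPM, a ratio of 0.826 (0.782 to 0.872), closer to 1 than the 0.457 of the control library. Aen and Cyfip2, both with a ratio of 1.09, were the 2 exceptions. With cells of the TNF-labelled library thinned to 2000 counts, 8 of the 10 genes were below 1, but only 3 had intervals below 1. Of the 107 genes at least 1.5-fold higher in control cells, 93 reached the minimum in the TNF-labelled library and 86 of these, 92.5%, were above 1, while of the 68 lower ones 38 reached it and 29, 76.3%, were below 1.

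The cell division lists repeated their direction in the TNF-labelled library. Of 44 G2M genes 39 were below 1, with a median log2 ratio of -0.39, of 28 S phase genes 26, with a median of -0.18, and all 6 tubulins, with a median of -0.34. Among genes at the minimum level there, those at least 2-fold higher besides Syt1 were Sugct, Fut9, Dach2, Sema3e and Elmo1, the first 4 named after their values were seen. All 4 had smaller ratios in the control library. Sugct, which encodes a CoA transferase of mitochondria, had a ratio of 2.52 (1.82 to 3.49) against 1.63 in the control library, and Fut9, a fucosyltransferase, 2.49 (1.98 to 3.15) against 1.58. Sema3e, a secreted semaphorin, had 2.12 against 1.31, and Dach2 had 2.22 against 1.97. Across 6094 genes tested in both libraries, the log2 ratios correlated with an r of 0.479, and 65.3% lay on the same side of 1, a description over genes of 2 libraries.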

How the data were processed

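Single-cell RNA sequencing of IEC-6 cells gave 1 control and 1 TNF-labelled library. For each, the authors deposited counts of genes by cells, which are whole numbers and not normalized. The submitters' processing notes name the build Rnor_5.0. Not given in the sources used here are the aligner, counter, annotation, cell filter and use of molecular identifiers. PCR copies may therefore be counted more than once. The files held 17968 and 16182 genes.

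The members and gene lists were chosen with earlier results of these data known. Counts were summed over Syt1-high cells (3783027 counts) and Syt1-zero cells (14278905 counts), so that 1 count was worth 0.264 and 0.0700 CPM. Ratios have exact conditional binomial, levels exact Poisson and shares exact Clopper-Pearson 95% intervals. A group under 3 counts was entered at that floor. With 1 library per group no test was made and no p-value computed. Named genes were Syt1, Map2, Chl1, up to 15 largest and 10 smallest ratios past the 2-fold size without identifier-only, ribosomal or mitochondrial names, 2 by level and 2 by ratio from each of 30 lists, and the 10 genes most correlated with Syt1. Others are said to be named after their values were seen. Some genes that the rule takes are not reported here, though counts over the leading genes include them. The depth bins, the 1.5-fold sets, the comparisons within clusters and the counts per cell of the named genes were added after seeing the data.

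Clusters used scanpy 1.11.5 on 2000 variable genes without Syt1 and 30 principal components, with 15 neighbours in the graph and a Leiden resolution of 0.5, and phases its gene scoring. Scrublet called 0 of 5713 cells, too few for the caller to have worked, so doublets were kept. In all 15 alternatives were tried, among them TMM factors from edgeR 4.0.16. The steps were tested on simulated data. Coordinates, lengths and promoter sequences were not used, since the reference tables are of another assembly.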

Additional observations from a re-analysis of the deposited data

Results flagged for a closer look

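For 9 named genes the ratio of Syt1-high over Syt1-zero cells lay on opposite sides of 1 in the control and the TNF-labelled library, with both counting intervals past 1, and the difference between libraries was not tested. Below, the value of the TNF-labelled library comes first. Chl1 had ratios of 0.555 and 1.73. Lgals4 had 1.34 (1.05 to 1.71) and 0.523, and Cdh17 1.57 (1.02 to 2.38) and 0.583. With cells of the TNF-labelled library thinned to 2000 counts Lgals4 had 0.936 and Cdh17 0.988 there, and with control cells weighted by cluster Lgals4 had 0.967, so the opposite direction was not seen at equal depth. Ebp, an enzyme of cholesterol synthesis, had 0.848 and 1.15, and Ctgf, a secreted matrix protein and YAP target, had 0.848 and 1.11. The ribosomal protein gene Rpl41 had 0.917 and 1.02, and the mitochondrial transcripts Mt-co1, Mt-cyb and ND1 had 1.02, 1.03 and 1.04 against 0.932, 0.97 and 0.821, small differences on many counts. At equal depth the 3 transcripts had 0.998, 0.997 and 1.00 in the TNF-labelled library.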

How the results depend on the processing

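The number of genes at least 2-fold higher in Syt1-high control cells was 15 and of those lower 11. Both moved to 35 and 45 with every cell thinned to 2000 counts, 28 and 20 with comparison cells weighted by depth, 37 and 243 with cells chosen after thinning, 31 and 22 without cells of very high counts, 27 and 36 at a minimum of 10 CPM, and 8 and 5 at 50 CPM. The mean over cells gave 37 higher, G1 cells only gave 37 lower, and weighting by cluster, added after seeing the data, gave 4 higher. The cause was not tested, except that a lower or higher minimum tests 8372 or 4029 genes and thinning leaves fewer counts. Syt1-high cells chosen after thinning were also few, so that the minimum of 20 counts is a higher CPM in them. In each of the 13 alternatives that can change a ratio, all higher genes besides Syt1 stayed above 1 and all 11 lower genes below 1. These genes were picked by their ratios in mostly the same cells. Map2 had ratios of 2.90 weighted by depth, 2.94 chosen after thinning, 3.01 without cells of very high counts, 2.95 as a mean over cells and 1.91 weighted by cluster, beside 2.42. Chl1 had 3.85 chosen after thinning and 1.09 in G1 cells, beside 1.73. Over 140 named genes and the 13 alternatives that can change a ratio, 1417 of 1820 ratios stayed within the counting interval, 403 moved and 0 reversed. TMM factors shifted the median log2 ratio of all genes to -0.03. The share with a Map2 count was 17.7% at 3000 counts and 28.3% without thinning, and with a Chl1 count 8.13% without thinning. The cluster with most Syt1-high cells held 93.9% of them at Leiden resolution 0.3 and 39.4% at 1.0. Depth limits genes of few counts such as Chl1 and Snap25, and with 1 library per group no difference has a replicate check. No paired analysis was possible because each group has 1 sample.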

Other observations

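Lgr5, a marker of intestinal stem cells, was below the minimum level in control cells. It stood at 10.8 CPM in Syt1-high and 13.9 CPM in Syt1-zero control cells, a ratio of 0.782 (0.544 to 1.10). At equal depth the control levels were 13.4 and 14.7 CPM, so no Lgr5 difference past counting error was seen there. In the TNF-labelled library Lgr5 was at 11.3 against 23.6 CPM, a ratio of 0.481 (0.322 to 0.700). Map1b, a microtubule-associated protein of growing nerve processes, had a ratio of 1.07 (0.964 to 1.18) in control cells and 1.51 (1.35 to 1.70) in TNF-labelled cells. Tox, a nuclear factor, had 1.32 and 1.92. Fetub had 1.85 in control cells and 1.00 (0.908 to 1.10) in TNF-labelled cells, at 195 against 194 CPM there, and Htr2a, a serotonin receptor, had 1.72 and 0.880 (0.726 to 1.06). Pdx1, a transcription factor of duodenum and pancreas, was low with Syt1 in both, with ratios of 0.732 (0.570 to 0.929) and 0.542 (0.432 to 0.674). These genes were picked after their values were seen, and the differences between libraries were not tested.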
